A study of Mus musculus with 23 samples.

Results

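The comparison described here set neutrophils from the lungs of mice with a *Piezo1* deletion aimed at blood cells (*Piezo1*-cKO, 2 libraries) against neutrophils from the peripheral blood (PB) of *Piezo1*-cKO mice (2 libraries). It addressed which of the genes that neutrophils raise in the lung were still raised without this channel. The lung and PB tables were joined by gene, and a gene was a member where its FPKM, a read count scaled to the length of the transcript and the size of the library, was at least 1 in 2 or more of the 4 libraries. Of 21878 genes listed, 7163 were members, and of the 14715 others 7650 had no read in any of the 4 libraries. Just outside the limit lay *Ap1m2* and *Ubqln2*, whose second highest values were 0.999 and 0.999 FPKM, and just inside lay *Pdzd3* and *Ctdspl2*, at 1.00 and 1.00 FPKM. Because of this filter, 288 genes were members through both lung libraries alone and 782 through both PB libraries alone.

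The series holds 23 bulk RNA-Seq libraries, of which 14 were used. The *Piezo1* experiment gave the 4 *Piezo1*-cKO libraries and 4 libraries of WT mice, 2 of lung and 2 of PB neutrophils, and a separate tissue comparison gave 3 lung and 3 PB libraries of other WT samples. *Piezo1*-cKO mice carried loxP sites around exons of *Piezo1* and the *Vav1-iCre* transgene, which is active throughout the hematopoietic lineage and not in neutrophils alone. The mice were 7 to 12 weeks old and of both sexes per the study's methods. The labels name no drug or infection, and the genotype of the WT mice that gave these libraries is not given in the sources used here, although WT mice of the study's imaging carried the loxP sites without *Vav1-iCre*. Neutrophils were enriched by negative selection and then sorted as CD45+CD11b+Ly6G+ cells. Lung cells come from a dissociated solid tissue and PB cells from a tube, and which dissociation was used for these libraries is not given, so that tissue and preparation cannot be told apart in any lung against PB difference below. The lung and PB tables were also deposited separately, although each library's FPKM was scaled within that library. No label says that the 2 libraries of a group came from different mice, so the p-values measure the spread between these libraries, which may be technical.

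Neutrophils are short-lived phagocytes that circulate in blood and linger in the lung, where capillaries are narrower than the cell and force it to change shape. PIEZO1 is a cation channel of the cell membrane that opens when the membrane is stretched and lets calcium enter. In macrophages and neutrophils, signals that reach NF-kB and AP-1 transcription factors raise chemokines, IL-1 family cytokines, prostaglandin synthesis and the inhibitors that later switch the same factors off.

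The libraries held 14722749 and 14262343 reads assigned to genes in *Piezo1*-cKO lung and 9621120 and 14161311 in *Piezo1*-cKO PB, so the first PB library was the shallowest. The WT libraries of the experiment held 13183370 to 15034817. By counting error alone, a gene without a read may have had as many as 3, which is 0.204 to 0.312 CPM (reads scaled to the library total) in the *Piezo1*-cKO libraries. The spread between the 2 libraries of a group beyond counting error was 2.53% in *Piezo1*-cKO lung and 5.32% in *Piezo1*-cKO PB (edgeR's biological coefficient of variation). *Piezo1* itself was listed at 0.0510 and 0.0301 FPKM in *Piezo1*-cKO lung, 0.0335 and 0.0758 in *Piezo1*-cKO PB, 0.0577 and 0.0571 in WT lung and 0.0407 and 0.0357 in WT PB. These levels rest on 3 to 10 reads in each library and overlap between genotypes, so the deletion could not be checked from them, and the genotype is taken from the labels. The labelled cell type was seen in every *Piezo1*-cKO library: all 12 neutrophil identity genes were tested, and *S100a8* and *S100a9*, which encode the calcium-binding proteins of neutrophil cytosol, lay between 40639 and 73439 FPKM and between 23098 and 44065 FPKM.

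A gene was called a differentially expressed gene (DEG) where its adjusted p in limma-trend was below 0.05 and its log2 difference, lung minus PB on the log2(FPKM + 1) scale, exceeded 1 in size. In *Piezo1*-cKO neutrophils 568 genes were higher in lung, 7.93% of the genes tested, and 1644 were lower, 23% of them. The lung and PB libraries did not overlap for any of these 2212 DEGs. Non-overlap does not set the DEGs apart, because genes without a call, such as *Tank*, did not overlap either. Its share among all genes tested is not given here, and 6054 of them passed by adjusted p alone. Of the higher DEGs 162 were members through the lung libraries alone, as were 344 of the lower ones through PB alone. The median over all genes tested was −0.54, and after rescaling the libraries to a common median ratio it was −0.08, with 896 genes called higher and 619 lower, so that the share of DEGs that were higher went from 25.7% to 59.1%. Which direction held more genes therefore depended on the scaling, and the size of a change is set against this median below. WT libraries of the same experiment gave 536 higher (7.5%) and 1893 lower (26.5%) among 7143 genes, with a median of −0.62.

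The lung programme was taken from the tissue comparison, which shares no library with the *Piezo1* experiment: 587 genes were higher in lung than in PB, 7.75% of 7577 genes tested, and 1476 were lower, 19.5%. Of the 587, 547 were tested in *Piezo1*-cKO and 437 were DEGs higher in lung, which is 79.9% of those tested and 74.4% of the whole programme, against 7.93% of all genes tested. None was called lower in lung. In WT libraries of the same experiment 434 of 546 were called, 79.5% against 7.5% of all genes. Of the 541 tested in both genotypes, 397 were called in both, 37 in *Piezo1*-cKO alone, 36 in WT alone and 71 in neither, where a call in one genotype alone is no test of a difference between genotypes. Because 122 of the 547 were members through the lung libraries alone, the count was also taken over the remaining 425, of which 325 were called (76.5%). The 40 genes not tested reached at most 1.49 FPKM in the *Piezo1*-cKO libraries, among them *Lif*, a cytokine, and *Dusp4* and *Dusp8*, which encode phosphatases of MAP kinases.

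**Figure D1:**
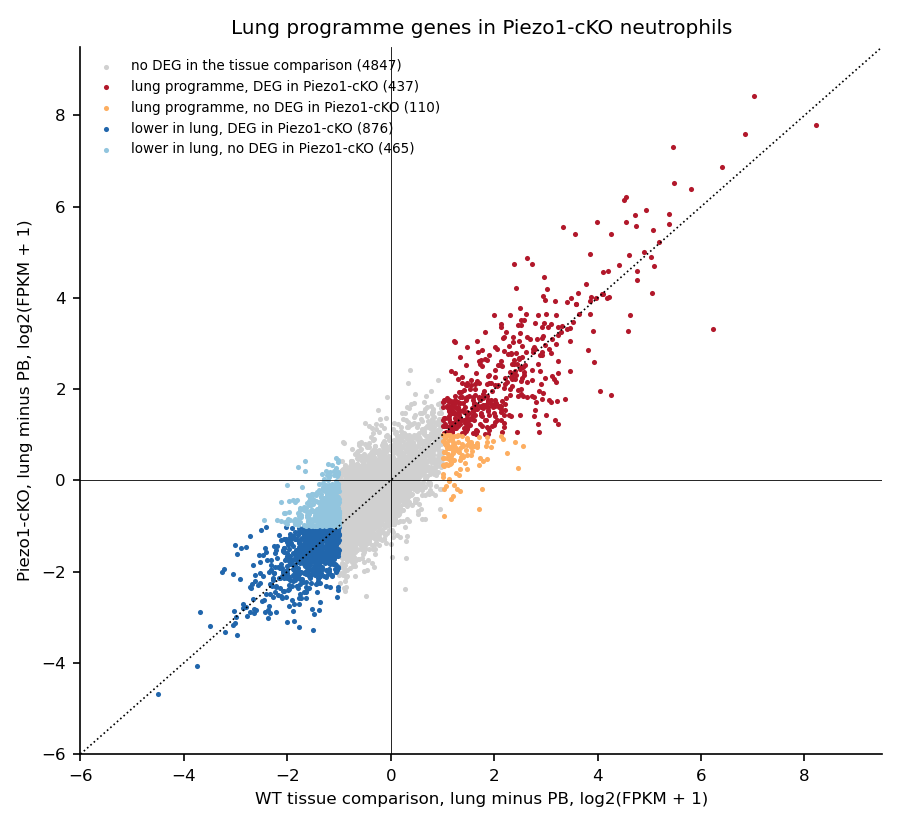
Each point is a gene tested in both comparisons, placed by its lung minus PB difference in log2(FPKM + 1) in the WT tissue comparison (x axis) and in Piezo1-cKO neutrophils (y axis), with a dotted line where both are equal and numbers of genes in the key. The 437 lung programme genes that were DEGs in Piezo1-cKO run along the line up to its top, and the 110 that were not lie below a difference of 1.

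The size of the gain was set beside that in the tissue comparison. The median log2 difference of the 547 programme genes was 1.69 in *Piezo1*-cKO, with quartiles of 1.14 and 2.63, beside −0.54 for all genes tested, which places it 2.23 above that median. It was 1.75 with each gene unread in PB set at its lower bound, 1.79 for these genes in the tissue comparison itself, and 1.64 over the genes tested in WT. Across these genes the *Piezo1*-cKO difference rose by 1.05 for each unit of the tissue difference, with a Pearson r of 0.83, and in WT by 1.01 with an r of 0.85. The genes share libraries and depth, so these are descriptions across genes. The call followed the size in the tissue comparison: 122 of 203 genes with a tissue difference from 1 to 1.5 were called in *Piezo1*-cKO (60.1%; WT 59%), 89 of 112 from 1.5 to 2 (79.5%), 140 of 146 from 2 to 3 (95.9%), and all 49 from 3 to 4 and all 37 above 4. The last group had a median of 5.003 in *Piezo1*-cKO and 4.803 in WT. Lung and PB libraries lay a root mean square of 1.096 log2 units per gene apart in *Piezo1*-cKO and 1.109 in WT, while the 2 libraries of a group differed by 0.148 to 0.181.

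The largest fitted rise was that of *Thbs1* (chr2:118111876-118127133, GRCm38), which encodes thrombospondin 1, a secreted matrix glycoprotein that restrains the growth of vessels. Its level was 875 and 850 FPKM in *Piezo1*-cKO lung and 1.56 and 1.44 FPKM in *Piezo1*-cKO PB, a log2 difference of 8.43 (SE 0.05, limma adjusted p = 6.8e-09). WT lung held 781 and 775 FPKM and WT PB 5.93 and 5.51. Both lung groups were high and both PB groups low, with the lowest levels in *Piezo1*-cKO PB.

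*Hilpda* (chr6:29272488-29275449), a small protein that holds back the breakdown of lipid droplets, stood at 399.9 and 388 FPKM in *Piezo1*-cKO lung against 0.940 and 1.15 in *Piezo1*-cKO PB, a log2 difference of 7.60 (SE 0.07). *Cdkn1a* (chr17:29090979-29100722), which encodes the p21 inhibitor of cyclin-dependent kinases, stood at 347 and 356 FPKM against 1.17 and 1.25, a log2 difference of 7.32 (SE 0.06). Every lung library was far above every PB library for both. *Il23a*, the p19 subunit of interleukin 23, was at 97.6 and 101 FPKM in lung and at 0.153 and 0.0520 in PB (log2 difference 6.51). *Il1a*, an IL-1 family cytokine, was at 114 and 116 FPKM in lung and 0.465 and 0.316 in PB (log2 difference 6.39). *Gm4832*, a gene model with no assigned role, was at 69.2 and 77.3 FPKM in lung and had no read in PB, which makes it at least 136-fold higher in lung against a floor of 3 reads in each PB library.

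The CXC chemokines *Cxcl1*, *Cxcl2* and *Cxcl3*, which attract neutrophils through CXCR2, lie close together on chromosome 5. *Cxcl1* was at 113 and 119.9 FPKM in *Piezo1*-cKO lung and had no read in *Piezo1*-cKO PB, at least 424-fold higher against the same floor. *Cxcl3* was at 353 and 335 FPKM in lung and 0.715 and 0.416 in PB (log2 difference 7.79, SE 0.10, adjusted p = 2.3e-08). *Cxcl2* was at 10278 and 10668 FPKM in lung and 335 and 338 in PB (log2 difference 4.96, SE 0.03, adjusted p = 6.8e-09). All 3 genes rose in *Piezo1*-cKO lung, and *Cxcl2* alone of them was well read in PB. In WT lung these genes stood higher, at 170.1 and 172 FPKM for *Cxcl1*, 649 and 669 for *Cxcl3* and 13892 and 13832 for *Cxcl2*. The WT PB levels were 0.477 and 0.349, 3.35 and 3.66, and 925 and 944 FPKM for the same genes.

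The 250 bases before the start of each of these chemokine genes hold the same 9 letters of the NF-kB pattern, so they are shown, from RefSeq on GRCm38.p6 and 5′ to 3′ on the + strand, with that match in capitals. *Cxcl2* was added after its values were seen. The stretches lie at chr5:90890995-90891244 for *Cxcl1*, chr5:90903649-90903898 for *Cxcl2* and chr5:90785851-90786100 for *Cxcl3*.
Cxcl1: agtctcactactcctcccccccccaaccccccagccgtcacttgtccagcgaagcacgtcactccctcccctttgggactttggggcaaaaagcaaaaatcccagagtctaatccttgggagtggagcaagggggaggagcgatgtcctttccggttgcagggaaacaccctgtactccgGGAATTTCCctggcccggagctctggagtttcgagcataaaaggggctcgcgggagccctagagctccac
Cxcl2: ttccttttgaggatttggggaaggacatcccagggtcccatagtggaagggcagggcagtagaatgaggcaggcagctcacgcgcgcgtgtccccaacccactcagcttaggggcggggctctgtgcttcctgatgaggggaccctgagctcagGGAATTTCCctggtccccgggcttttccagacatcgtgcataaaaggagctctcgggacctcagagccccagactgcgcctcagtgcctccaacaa
Cxcl3: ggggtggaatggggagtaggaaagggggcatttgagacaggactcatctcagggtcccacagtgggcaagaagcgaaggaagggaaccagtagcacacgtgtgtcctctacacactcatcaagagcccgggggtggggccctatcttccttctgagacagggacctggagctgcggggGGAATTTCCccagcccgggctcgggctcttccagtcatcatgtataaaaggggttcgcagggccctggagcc

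The match begins 70 bases before the start in *Cxcl1*, 96 in *Cxcl2* and 72 in *Cxcl3*. For contrast, *Il1a* holds no such match in its stretch (chr2:129309973-129310222, − strand) but the AP-1 letters TGACTCA 12 bases and the TATA letters 32 bases before its start, both in capitals.
Il1a: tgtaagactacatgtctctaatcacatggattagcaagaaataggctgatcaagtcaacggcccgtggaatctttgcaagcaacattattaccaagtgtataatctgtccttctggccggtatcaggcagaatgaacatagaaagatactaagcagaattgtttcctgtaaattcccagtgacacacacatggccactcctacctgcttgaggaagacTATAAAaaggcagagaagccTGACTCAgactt

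The NF-kB pattern GGANNTTCC, searched on both strands, was in 4.12% of 27025 promoters of this length, in 4.64% of the promoters of genes tested in *Piezo1*-cKO, in 8.12% of 357 promoters of programme genes called there, in 7.45% of 94 promoters of programme genes not called and in 4.98% of the promoters of genes called lower. The AP-1 pattern TGANTCA was in 7.82% of all promoters, 5.39% of those of genes tested, 10.6% of those of programme genes called, 3.19% of those not called and 4.39% of those called lower. The cyclic AMP response pattern TGACGTCA was in 1.77%, 3.46%, 6.44%, 5.32% and 2.42% of the same sets. The hypoxia response core ACGTG was in 18.5%, 27.1%, 34.2%, 25.5% and 23.8% of them, and TATAAA in 14.3%, 7.61%, 7.28%, 9.57% and 7.54%. No pattern holds the whole of another, and matches may overlap at their edges. A match describes letters in the window and not a bound site.

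**Figure D2:**
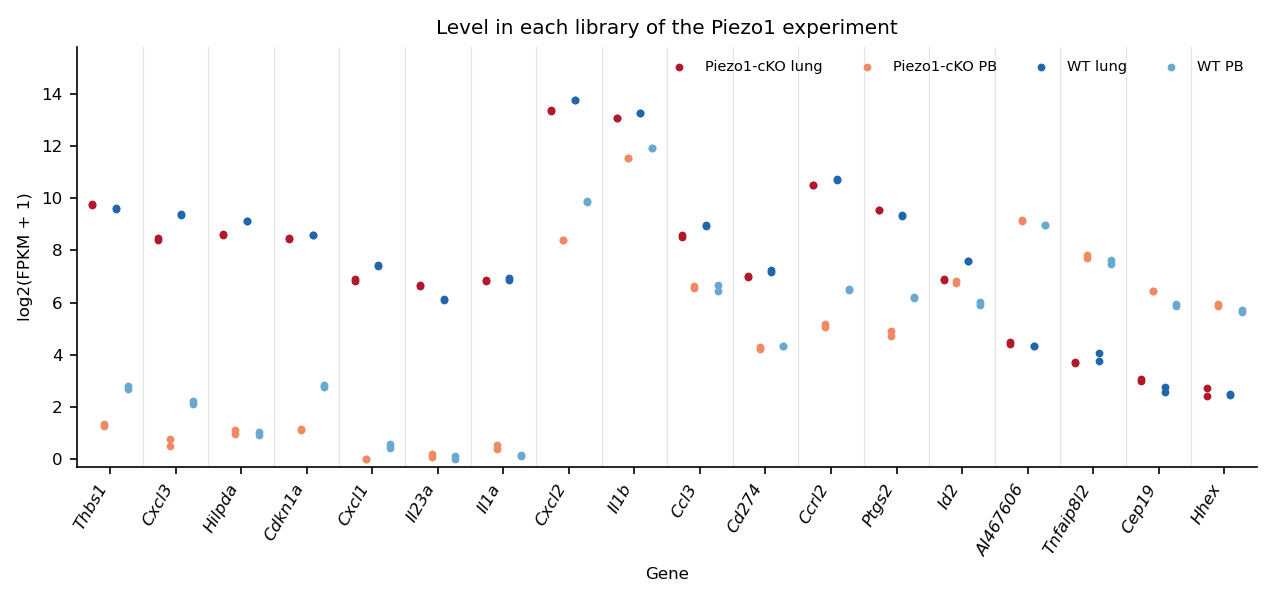
Level of 18 genes in log2(FPKM + 1) in each library of the Piezo1 experiment, with 2 points per group for Piezo1-cKO lung, Piezo1-cKO PB, WT lung and WT PB. The genes from Thbs1 to Ptgs2 are high in both lung groups, Id2 is near level between Piezo1-cKO lung and PB without rescaling, and the last 4 genes are high in both PB groups.

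Among lists of gene function, the highest share of members called higher was that of NF-kB subunits and their feedback inhibitors. Of 20 members tested in *Piezo1*-cKO, 18 were called higher in lung and none lower, beside 7.93% of all genes, with a median of 2.85 beside −0.54 for all genes, and 18 were called higher after rescaling. Of the 18, *Traf1* and *Cd83* passed the filter through the lung libraries alone. WT libraries gave 18 higher and 1 lower, beside 7.5% and 26.5% of all genes, with a median of 2.62. *Tnfaip3*, which encodes the A20 inhibitor of NF-kB signalling, was at 462 and 450.3 FPKM in *Piezo1*-cKO lung and 8.99 and 8.33 in *Piezo1*-cKO PB (log2 difference 5.56). *Nfkbie*, an inhibitor that holds NF-kB in the cytoplasm, was at 357 and 364 FPKM against 9.17 and 8.20 (log2 difference 5.22). *Traf1*, an adaptor of TNF receptors, was at 26.9 and 25.3 FPKM against 0.122 and 0.114. *Icam1*, an adhesion ligand of integrins, was at 230.1 and 231 FPKM against 8.59 and 8.92 (log2 difference 4.57). Lung and PB were apart in every library for these genes. None of the 20 members had a called difference between genotypes, beside 4.29% of all genes called larger and 2.57% called smaller in *Piezo1*-cKO.

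Chemokines, cytokines and angiogenic mediators rose in most of their tested members, beside 7.93% of all genes. Members that passed the filter through the lung libraries alone could only be called higher, and these were 3 of the 7 chemokines called higher (*Cxcl1*, *Cxcl3* and *Cxcl16*), 4 of the 9 cytokines (*Il1a*, *Il10*, *Il12a* and *Csf3*) and 3 of the 8 angiogenic mediators (*F3*, *Areg* and *Hbegf*). Of 10 chemokines tested, 7 were called higher and none lower (median 1.85, or 2.09 with unread genes at their bounds, and 1.90 in WT). *Ccl4*, a CC chemokine, was at 190 and 213 FPKM in *Piezo1*-cKO lung and 38.8 and 46.2 in PB. *Ccl3*, which attracts myeloid cells through CCR1, was at 363 and 385 FPKM in lung and 93.5 and 98.4 in PB, a log2 difference of 1.95 (SE 0.05), while the tissue comparison gave 4.05 for it. Its difference was also smaller than in WT of the same experiment, by −0.43 (SE 0.10, adjusted p = 0.0078), which is below the size set for a call.

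Of 12 cytokines tested, 9 were called higher in lung and 1 lower (median 1.81, or 2.16 with bounds, and 1.71 in WT). *Il1b*, the IL-1 cytokine that the inflammasome matures, had 8691 and 8619 FPKM in *Piezo1*-cKO lung and 3000.2 and 2969 in PB, a log2 difference of 1.54 (SE 0.03, adjusted p = 9.2e-08). *Tnf* was at 150.4 and 154 FPKM in lung and 11.8 and 10.9 in PB (log2 difference 3.64). *Csf3*, the granulocyte growth factor G-CSF, was at 15.3 and 15.5 FPKM in lung and 0 and 0.0258 in PB. *Il12a*, a subunit of interleukin 12, was at 11.0 and 11.6 FPKM in lung with no read in PB, at least 67.4-fold higher. *Il1b* and *Tnf* were well read in blood, whereas *Csf3* and *Il12a* were not. The member called lower was *Tnfsf14*, a TNF family ligand, at −2.22. *Il6* was listed at 0 in all libraries of the *Piezo1* experiment but 1, which held 0.123 FPKM in *Piezo1*-cKO lung, so it was not tested.

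Of 11 angiogenic mediators tested, 8 were called higher and none lower in *Piezo1*-cKO (median 1.61, or 3.27 with bounds), and 7 of 10 in WT (median 2.47). *Ptgs2*, the inducible cyclooxygenase that starts prostaglandin synthesis, was at 753 and 755 FPKM in *Piezo1*-cKO lung and 29.4 and 25.1 in PB (log2 difference 4.75, SE 0.07). *F3*, tissue factor, which starts coagulation, was at 39.7 and 38.1 FPKM in lung and 0.886 and 0.941 in PB (log2 difference 4.38). *Plaur*, the urokinase receptor, and *Areg*, a ligand of the EGF receptor, were called at 2.43 and 1.61. *Thbs1* and *Ptgs2*, whose products have opposite known effects on vessels, both rose.

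Immediate early genes and MAP kinase phosphatases rose in part. Of 22 immediate early genes tested, 10 were called higher and 3 lower (median 0.80; WT 7 and 3, median 0.52), and 4 of 6 phosphatases were higher and 1 lower (median 3.27, or 4.02 with bounds). Over all genes tested the shares were 7.93% higher and 23% lower in *Piezo1*-cKO, and 7.5% and 26.5% in WT. Of the members called higher, 4 of the 10 and 1 of the 4 passed the filter through the lung libraries alone. Those could only be called higher. *Nr4a1*, an orphan nuclear receptor induced within minutes of stimulation, was at 755 and 745 FPKM in *Piezo1*-cKO lung and 24.6 and 24.3 in PB (log2 difference 4.88). *Dusp2*, a nuclear phosphatase of ERK and p38, was at 429 and 454 FPKM against 10.5 and 8.60 (log2 difference 5.39). *Dusp5* and *Dusp16* were called at 4.04 and 3.998. The immediate early genes called lower were *Jun* at −2.19, *Klf2* at −2.10 and *Klf6* at −2.003, and *Dusp6* was called lower at −1.43 but stood at −0.87 after rescaling.

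Among receptors, *Ccrl2*, which binds chemerin without signalling, was at 1473 FPKM in both *Piezo1*-cKO lung libraries and 34.8 and 32.9 in PB (log2 difference 5.40, SE 0.04). *Cd14*, the co-receptor for lipopolysaccharide, was at 5762 and 5526 FPKM in lung and 198 and 169.8 in PB (log2 difference 4.94). *Il1r2*, the IL-1 decoy receptor, was at 3261 and 3234 FPKM in lung and 366 and 341 in PB (log2 difference 3.20). These 3 receptors were high in lung, and the following chemokine receptor was not. *Cxcr2* was at 412 and 408 FPKM in lung and 1464 and 1463 in PB, a log2 difference of −1.83, which remained a call after rescaling at −1.27. Of all 11 chemoattractant receptors tested 2 were called higher and 2 lower, and of 15 pattern recognition receptors 4 were higher and 3 lower. Among all genes tested 7.93% were called higher and 23% lower. In both lists the share called lower was near that of all genes and the share called higher above it, on few members each. After rescaling 3 chemoattractant receptors were called higher and 1 lower, and 6 pattern recognition receptors higher and 1 lower. Over all genes the rescaled shares were 12.5% higher and 8.64% lower.

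*Cd274*, which encodes the checkpoint ligand PD-L1, was at 129 and 126 FPKM in *Piezo1*-cKO lung and 17.9 and 18.5 in PB (log2 difference 2.75, SE 0.05). *Cd80*, a costimulatory ligand, was at 98.6 and 97.0 FPKM in lung and 14.1 and 13.2 in PB (log2 difference 2.75). Both genes separated lung from PB in every library. Of 8 checkpoint and costimulatory ligands tested, 3 were called higher and 1 lower, in *Piezo1*-cKO and in WT alike by count. Among all genes tested, 7.93% were higher and 23% lower in *Piezo1*-cKO, and 7.5% and 26.5% in WT. In *Piezo1*-cKO 1 of the 3 passed the filter through the lung libraries alone and could only be called higher.

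Genes of the NRF2 oxidative response split: 6 of 12 were called higher and 2 lower (median 1.07). Of the 6, 1 passed the filter through the lung libraries alone and could only be called higher. The lists of this paragraph stand beside 7.93% higher and 23% lower over all genes tested. *Txnrd1*, thioredoxin reductase, was at 129.5 and 131 FPKM in *Piezo1*-cKO lung and 7.63 and 7.50 in PB (log2 difference 3.94), and *Srxn1*, sulfiredoxin, was called at 3.94 too. *Hmox1*, heme oxygenase, and *Gclm*, a subunit of the enzyme that starts glutathione synthesis, were called lower at −1.63 and −1.51, *Gclm* not after rescaling, where it stood at −0.995. Of the BCL2 family 5 of 11 were called higher and 3 lower. The pro-survival *Bcl2a1d* and *Bcl2a1b* were called at 3.87 and 2.86, although these genes are near-identical copies whose reads may be shared. *Bcl2l11*, which encodes the pro-death protein BIM, was also called higher, at 2.55, while *Bid* and *Bbc3*, which encode pro-death proteins, were called lower at −2.12 and −2.004. Of 11 p53 targets tested 4 were higher and 3 lower, and 1 of the 3 passed the filter through the PB libraries alone.

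The hypoxia list did not move one way. Of 18 members tested, 4 were called higher (*Hilpda* 7.60, *Hif1a* 2.09, *Ddit4* 1.85 and *Slc2a1* 1.33) and 5 lower, among them *Pfkfb4*, a regulator of glycolysis, at −1.67 and *Vhl*, which marks HIF proteins for destruction, at −1.42, although *Vhl* stood at −0.91 after rescaling. By count, rescaling gave 7 higher and 1 lower. *Ddit4* passed the filter through the lung libraries alone and could only be called higher. Beside the lists of this paragraph, 7.93% of all genes tested were called higher and 23% lower. After rescaling these shares were 12.5% and 8.64%. Of 14 glycolytic enzymes tested none was called higher, and *Tpi1* was called lower at −1.14, but not after rescaling, where it stood at −0.59. Of 19 interferon-stimulated genes 2 were called higher and 7 lower, and after rescaling 2 and 2. *Isg15*, a ubiquitin-like protein, was at 197 and 213 FPKM in lung and 29.1 and 31.8 in PB (log2 difference 2.71), and *Usp18*, the enzyme that removes it, was called lower at −2.19.

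**Figure D3:**
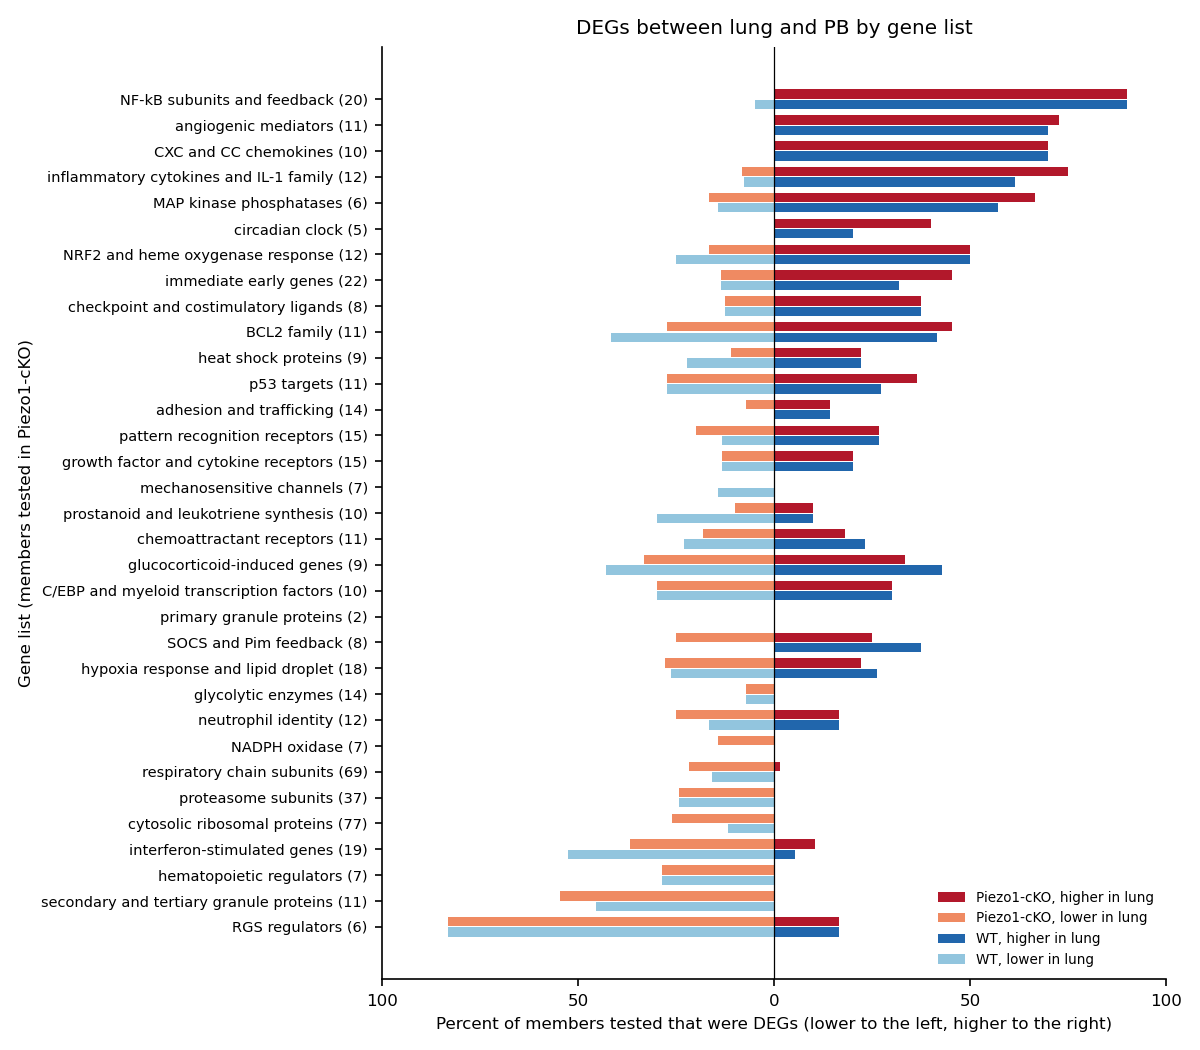
Bars give the percent of the tested members of each gene list that were DEGs higher in lung (right) and lower in lung (left), in Piezo1-cKO and in WT of the Piezo1 experiment, with the number tested in Piezo1-cKO in brackets. NF-kB genes, angiogenic mediators and chemokines were called higher in 18 of 20, 8 of 11 and 7 of 10 members in Piezo1-cKO, and the RGS list was called lower in 5 of 6.

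Genes lower in lung were followed in the same way. Of the 1476 genes lower in lung in the tissue comparison, 1341 were tested in *Piezo1*-cKO, 876 were called lower (65.3% against 23% of all genes) and none higher, with a median of −1.19. Of the 1341, 205 passed the filter through the PB libraries alone and could only be called lower, and of the other 1136, 739 were called lower (65.1%). WT gave 1014 of 1354 (74.9% against 26.5%), with a median of −1.34, and over the 1310 genes tested in both 776 were called in both, 92 in *Piezo1*-cKO alone, 224 in WT alone and 218 in neither. After rescaling, which defined 499 genes as lower in the tissue comparison, 290 of 455 tested were called lower (63.7%).

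*AI467606*, a gene named by its clone, had the largest fall among genes that are not erythroid, from 555 and 579.6 FPKM in *Piezo1*-cKO PB to 20.5 and 21.7 in *Piezo1*-cKO lung, a log2 difference of −4.68 (SE 0.05, adjusted p = 1.3e-08). *Tnfaip8l2*, which encodes a protein that restrains innate immune signalling, fell from 226 and 211 FPKM to 11.8 and 12.1 (log2 difference −4.08). *Cep19*, a protein of the centrosome, fell from 86.1 and 85.1 FPKM to 7.51 and 7.05, and *Hhex*, a homeobox factor of blood and endothelial progenitors, from 59.9 and 57.2 FPKM to 5.60 and 4.35. All 4 had WT differences within 0.5 log2 units of those in *Piezo1*-cKO.

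Regulators of G protein signalling were mostly lower in lung, with 5 of 6 called lower beside 23% of all genes and 1 higher, and with 3 lower after rescaling beside 8.64% of all genes. *Rgs2* was at 125 and 123 FPKM in *Piezo1*-cKO lung and 978 and 974 in PB (log2 difference −2.96), and *Rgs1*, at 38.3 and 38.4 FPKM in lung and 5.39 and 5.36 in PB, was the one that rose. The glucocorticoid-induced *Tsc22d3* (GILZ) was at 147 and 149.6 FPKM in lung and 950.2 and 986 in PB (log2 difference −2.70), yet *Per1* and *Il1r2* of the same list were called higher. The list as a whole had 3 higher and 3 lower of 9, beside 7.93% and 23% of all genes. Of the 3 higher, 1 passed the filter through the lung libraries alone. *Cebpd*, *Cebpa* and *Cebpe*, factors of granulocyte development, were called lower at −2.99, −2.35 and −2.11, and *Cebpb*, the factor of emergency granulopoiesis, was called higher at 1.82. Secondary and tertiary granule proteins had 6 of 11 called lower, beside 23% of all genes, and none higher (median −1.06). After rescaling 1 of 11 was called lower, near the 8.64% of all genes. Among them *Camp*, which encodes an antimicrobial peptide, was called at −1.62 and stood at −1.05 after rescaling, and *Ngp*, neutrophilic granule protein, was at 858 and 868 FPKM in lung and 1992 and 2078 in PB but at −0.69 after rescaling. Of 77 cytosolic ribosomal proteins 20 were called lower and of 37 proteasome subunits 9, shares near the 23% of all genes, and 1 and none were called lower after rescaling, where the share of all genes was 8.64%.

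The remaining lists stand beside 7.93% higher and 23% lower over all genes tested in *Piezo1*-cKO. Of 15 growth factor and cytokine receptors 3 were called higher and 2 lower, of 14 adhesion genes 2 and 1, of 8 SOCS and Pim feedback genes 2 and 2, of 10 prostanoid and leukotriene synthesis genes 1 and 1, and of 9 heat shock proteins 2 and 1. Their shares called higher lay above that of all genes, on 1 to 3 members each. Of the 2 adhesion genes called higher, 1 passed the filter through the lung libraries alone. WT gave 3 higher and 0 lower SOCS and Pim genes, beside 7.5% and 26.5% of all genes in WT. Of the 8, 2 had a called smaller difference in *Piezo1*-cKO, beside 2.57% of all genes. *Pim3*, a survival kinase, led its list at 3.37 and *Hspa5*, the chaperone of the endoplasmic reticulum, was called at 1.53. Of 12 neutrophil identity genes 2 were higher, *Il1r2* and *Hdc*, and 3 lower. *Hdc*, the enzyme that makes histamine, was at 2984 and 2910.1 FPKM in lung and 902 and 834 in PB (log2 difference 1.76). Of 7 NADPH oxidase subunits 1 was lower, of 7 hematopoietic regulators 2, and of 69 respiratory chain subunits 15 were lower and 1 higher, which is near the shares of all genes called lower (23%) and higher (7.93%) or below them. Both primary granule genes tested were without a call.

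Of the 568 DEGs higher in *Piezo1*-cKO lung, 131 were not in the programme, and 104 of these had been tested in the tissue comparison, where 80 were higher by adjusted p without reaching the size. Among those with a mean of at least 5 FPKM in lung, the 3 largest were led by *Sik1*, a kinase that holds back CREB co-activators, at 37.1 and 38.0 FPKM in lung and 6.41 and 6.08 in PB (log2 difference 2.41). *Stk11*, the kinase LKB1 that activates it, was at 39.6 and 40.2 FPKM against 10.4 and 9.67 (log2 difference 1.89). *Bambi*, a decoy receptor of the TGF-beta family, lay between them at 2.20. WT of the same experiment gave 1.81 for *Sik1*, 1.68 for *Stk11* and 2.21 for *Bambi*, and 50 of the 131 were DEGs higher there, beside 7.5% of all genes. Over all 7577 genes tested in the tissue comparison, 1209 were higher by adjusted p, with 587 of them past the size. *Sik1*, *Stk11* and *Bambi* were picked by rank after their values were seen.

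Whether the lung minus PB difference itself changed with genotype was tested as an interaction over the 8 libraries of the *Piezo1* experiment. Over 7560 genes, 324 had a larger value in *Piezo1*-cKO (4.29%) and 194 a smaller one (2.57%) at an adjusted p below 0.05 and a size above 1, with a median of 0.08. Among 553 programme genes tested, 19 were larger (3.44%), 19 were smaller (3.44%) and 515 were not called, with a median of 0.05. These shares lie near those of all genes. A gene not called is not shown to be unchanged. By adjusted p alone, 176 of the 553 had a positive and 137 a negative interaction, beside 3647 of all 7560 genes in either direction. The 19 with a larger difference were all DEGs in *Piezo1*-cKO, and 9 of the 19 with a smaller one were. A call of larger needs the *Piezo1*-cKO difference to exceed the WT one by more than 1. For any gene higher in WT lung, the *Piezo1*-cKO difference then exceeds 1 too. A call of smaller needs it to fall below the WT one by more than 1. The contrast between these counts is therefore favoured by the call itself and is no result about the programme.

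Among the 6 programme genes named for a smaller difference, *Id2*, an inhibitor of helix-loop-helix transcription factors, had no called step between the tissues in *Piezo1*-cKO. It was at 116 and 119 FPKM in *Piezo1*-cKO lung and 113 and 108 in *Piezo1*-cKO PB, a log2 difference of 0.08 (SE 0.05, adjusted p = 0.14), whereas WT lung held 191 and 191 FPKM and WT PB 59.5 and 64.8. After rescaling its *Piezo1*-cKO difference was 0.64, still below the size set for a call, so its flatness depended on the scaling. The interaction was −1.52 (SE 0.07, adjusted p = 6.8e-06), and *Id2* was lower in *Piezo1*-cKO than in WT lung by −0.70 and higher in PB by 0.82. *Lactb2*, a mitochondrial endoribonuclease, was at 4.04 and 3.74 FPKM in *Piezo1*-cKO lung and 0.785 and 1.42 in PB, against 6.70 and 8.68 and 0.115 and 0 in WT. *Pmvk*, an enzyme of the mevalonate pathway, had an interaction of −1.37, *Cdk4*, the kinase of early cell cycle entry, −1.31, *Nifk*, a nucleolar protein, −1.70 and *Gm6377*, a gene model, −1.72. Except for *Id2* and *Nifk*, whose *Piezo1*-cKO difference was 0.97, these were still DEGs higher in *Piezo1*-cKO lung, and in all 6 the PB level was higher in *Piezo1*-cKO than in WT. The *Piezo1*-cKO difference of *Pmvk*, 1.05, fell short of the size without lung replicate 2 (0.95) or PB replicate 2 (0.92), and that of *Nifk* passed it without PB replicate 1 (1.22).

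Among those with a larger difference, *Ptgs2* had an interaction of 1.60 (SE 0.09, adjusted p = 1.4e-05): its lung level was 753 and 755 FPKM in *Piezo1*-cKO and 648 and 642 in WT, and its PB level 29.4 and 25.1 against 71.1 and 72.7. *Thbs1* had 1.57, *Cdkn1a* 1.52 and *Cul2*, a ubiquitin ligase scaffold, 1.46, where *Cul2* had no read in *Piezo1*-cKO PB and 7.76 and 6.54 FPKM in lung. *Il10ra*, the interleukin 10 receptor, was at 168 and 168 FPKM in *Piezo1*-cKO lung and 15.1 and 14.8 in PB, against 138 and 134 and 32.5 and 28.8 in WT (interaction 1.29). *Olr1*, a receptor for oxidised lipoprotein, had 1.29, *Ccrl2* 1.19 and *Cxcl2* 1.07. For *Cxcl2*, *Ccrl2* and *Cdkn1a* the lung level was lower in *Piezo1*-cKO than in WT, by −0.40, −0.19 and −0.14, and the PB level was lower still, by −1.47, −1.38 and −1.66, so the step between tissues was larger while the lung level was lower.

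The PB and lung parts were then taken over all programme genes called. Of the 19 with a larger difference, PB was lower in *Piezo1*-cKO than in WT in 18 and lung higher in 14, with medians of −0.99 in PB and 0.30 in lung, and the PB part was larger in 17. Of the 19 with a smaller difference, PB was higher in all 19 and lung lower in 17, with medians of 0.75 and −0.56, and the PB part was larger in 12. A called difference is the lung part minus the PB part, so the call itself favours these signs. The sign counts are therefore descriptions and no result about the programme. Over all genes called, the PB part was larger in 209 of 324 and in 156 of 194. Erythroid RNA differed between genotypes in the same PB libraries, as described below, and its part in the result was not tested.

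**Figure D4:**
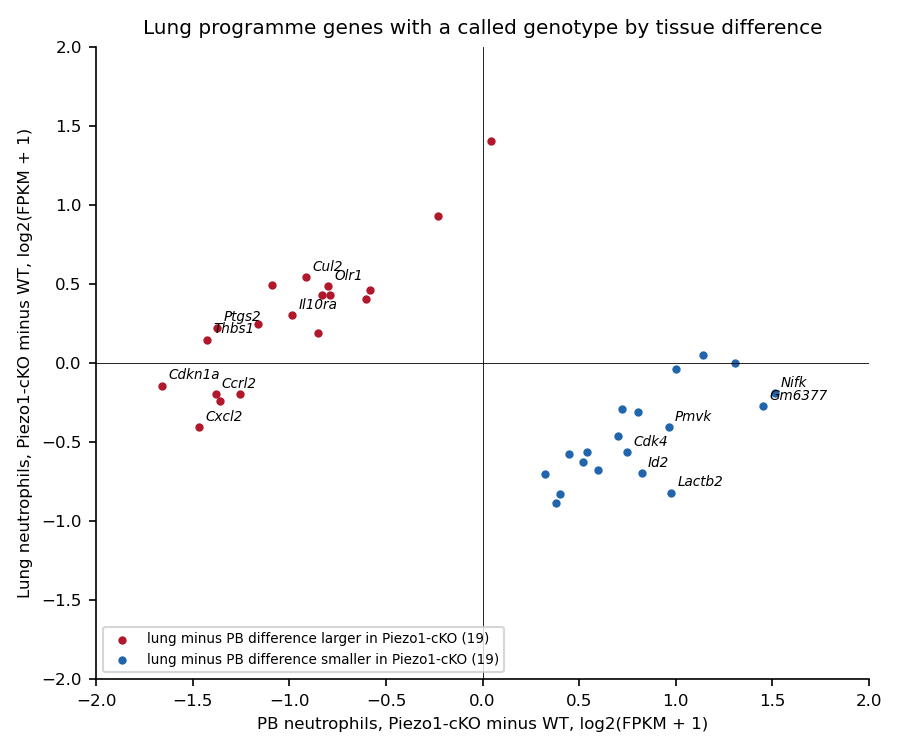
The 38 lung programme genes with a called interaction, placed by the Piezo1-cKO minus WT difference in log2(FPKM + 1) in PB neutrophils (x axis) and in lung neutrophils (y axis). The 19 genes with a larger lung minus PB difference in Piezo1-cKO lie mostly at the left and the 19 with a smaller one all lie at the right of 0. The call, made on lung minus PB, favours these sides.

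The programme genes that were not DEGs in *Piezo1*-cKO were mostly small gains. Of the 110, 93 were higher by adjusted p without reaching the size, 12 passed in neither direction and 5 were lower by adjusted p. After rescaling those 5 lay between −0.26 and 0.37, so their direction depended on the scaling in part. *Tank*, an adaptor of TRAF signalling, was at 14.5 and 14.5 FPKM in *Piezo1*-cKO lung and 12.8 and 13.7 in PB (log2 difference 0.12), against 1.14 in WT and 1.32 in the tissue comparison. *Got1*, an aspartate aminotransferase, had 0.33 in *Piezo1*-cKO, 1.48 in WT and 1.70 in the tissue comparison. *Lars2*, the mitochondrial leucyl-tRNA synthetase, was −0.62 in *Piezo1*-cKO and −0.48 in WT, against 1.70 in the tissue comparison, a difference between experiments that was not tested. After rescaling the *Piezo1*-cKO differences were 0.64 for *Tank*, 0.77 for *Got1* and −0.12 for *Lars2*. These 3 were picked after their values were seen.

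The 7 mechanosensitive channel genes tested lay between −0.56 and 0.72 in *Piezo1*-cKO, with a median of −0.06, and none was called there. In WT 7 were tested, with a median of −0.69, and 1 was called lower, beside 26.5% of all genes. Their median interaction was 0.89, beside 0.08 for all genes, and 1 of the 7 was called larger in *Piezo1*-cKO, beside 4.29% of all genes. Of 5 clock genes tested 2 were called higher in *Piezo1*-cKO, beside 7.93% of all genes, and 1 in WT, beside 7.5%. Of these 2, 1 passed the filter through the lung libraries alone and could only be called higher. *Per2*, a clock repressor, was at 7.10 and 6.43 FPKM in *Piezo1*-cKO lung and 4.15 and 4.45 in PB, against 2.30 and 2.59 and 4.53 and 4.78 in WT, so its interaction of 1.26 (SE 0.12) had its larger part in lung, where *Piezo1*-cKO was higher by 1.17. *Tlr7*, a receptor for single-stranded RNA, was at 0.989 and 1.30 FPKM in *Piezo1*-cKO lung and 8.87 and 7.18 in PB, against 1.64 and 1.59 and 2.76 and 2.74 in WT (interaction −1.55), with the larger part in PB.

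RNA of red blood cells differed between these libraries. The erythroid markers summed to 0.455 to 1.75 FPKM in *Piezo1*-cKO lung, 1011 to 1136 in *Piezo1*-cKO PB, 5.11 to 5.12 in WT lung and 24.96 to 26.8 in WT PB. All 5 tested were called lower in *Piezo1*-cKO lung, beside 23% of all genes tested, and 4 of the 5 passed the filter through the PB libraries alone. The largest fall of all genes was *Hba-a1*, an alpha globin, from 432 and 449.8 FPKM in PB to 0 and 1.00 in lung (log2 difference −8.29). *Hbb-bs*, a beta globin, was at 338 and 408 FPKM in PB and 0.319 and 0.219 in lung, *Hbb-bt* at 134 and 108 against 0 and 0.445, and *Hba-a2* at 101 and 165 against no read, at least 362-fold lower in lung. The alpha genes and the beta genes are near-identical pairs whose reads cannot be assigned with certainty. Of the 9 markers listed, 3 were at 0 in both PB libraries and 3 in both lung libraries, and *Slc4a1*, the anion exchanger of the red cell membrane, was at 0.0457 FPKM or less in every *Piezo1*-cKO library. The part of these cells in the other differences was not tested.

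Genes of MHC class II, which present antigen in dendritic cells and B cells, were called higher in *Piezo1*-cKO lung in all 4 members tested, beside 7.93% of all genes. Of these, *H2-Ab1*, *H2-Aa* and *H2-Eb1* passed the filter through the lung libraries alone and could only be called higher. *H2-Ab1* was at 54.9 and 56.0 FPKM in lung with no read in PB, at least 253-fold higher, and *H2-Aa* at 46.6 and 50.3 FPKM with no read in PB, at least 198-fold higher. *H2-Eb1* was at 39.5 and 42.3 FPKM against 0.374 and 0.423 and *Cd74*, the invariant chain, at 125 and 125 FPKM against 14.1 and 14.2. The dendritic and MHC class II list summed to 267 to 274 FPKM in *Piezo1*-cKO lung and 14.7 to 14.9 in PB, beside 283 to 294 and 13.5 to 14.4 in WT. Of its 9 members none was at 0 in both lung libraries and 4 were in both PB libraries, and the dendritic cell factors *Flt3*, *Xcr1*, *Zbtb46* and *Clec9a* did not exceed 0.277 FPKM in *Piezo1*-cKO. In sorted bulk samples more cells of a type and more RNA per cell cannot be told apart.

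The other marker lists had few members tested. Over all genes tested 7.93% were called higher and 23% lower. Monocyte and macrophage markers summed to 409.9 to 412 FPKM in *Piezo1*-cKO lung and 512 to 521 in PB, with 1 of 4 called lower, near the share of all genes. Alveolar macrophage markers summed to 119 to 121 and 289 to 296 FPKM, with 2 of 3 called lower, while *Marco*, *Krt79* and *Mrc1* of that list were at 0 in all 4 libraries. *Chil3* of that list is also in the list of secondary and tertiary granule proteins, and *Siglecf* in that of eosinophils. The sum is therefore not particular to alveolar macrophages. Eosinophil, basophil and mast cell markers summed to 16.9 to 18.9 and 24.7 to 26.2 FPKM, T and NK cell markers to 2.45 to 2.67 and 5.86 to 6.53, and B cell markers to 0.205 to 0.423 and 0.662 to 0.927. Alveolar epithelium markers summed to 5.66 to 5.75 FPKM in *Piezo1*-cKO lung and 2.91 to 3.37 in PB, with *Scgb1a1*, a club cell protein, called higher at 1.98. Platelet and megakaryocyte markers summed to 3.47 to 4.50 FPKM in lung and 1.19 to 1.23 in PB, with *Pf4*, platelet factor 4, the only one tested, called higher at 1.37. *Scgb1a1* and *Pf4* both passed the filter through the lung libraries alone. Endothelium markers summed to 2.06 to 2.40 and 3.23 to 3.98 and fibroblast markers to 0.125 to 0.639 and 0.168 to 0.190. The part of these cells in the lung against PB differences was not tested.

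**Figure D5:**
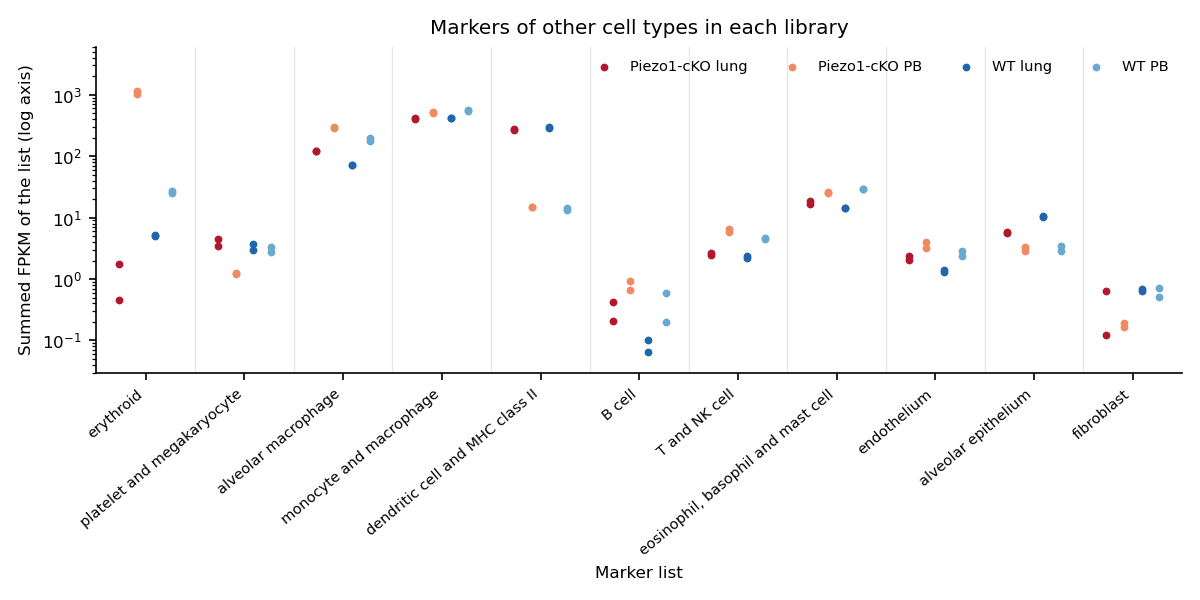
Summed FPKM (log axis) of marker lists of other cell types in each library of the Piezo1 experiment, with 2 points per group. Erythroid markers stand at 1011 to 1136 FPKM in Piezo1-cKO PB and at or below 26.8 elsewhere, and dendritic and MHC class II markers are above 260 in both lung groups and below 15 in both PB groups.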

How the data were processed

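The authors deposited FPKM per gene and library, made from paired-end reads of poly(A) RNA with fastp, HISAT2 and HTSeq (versions not given in the sources used here) on mm10, and, for the *Piezo1* experiment, a group signal that averages counts divided by DESeq2 size factors. The study's methods and the labels name different library kits. Columns of the authors' own fold changes and p-values were not used. Reads per gene were recovered from the FPKM and the signal (100% of values whole within 0.01 reads) and served the depths, bounds and alternative tests alone, in which 837 genes of the tissue comparison could not be given reads.

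Lung and PB tables were joined by gene identifier, and 27 symbols turned into dates were restored. Groups follow the labels. Each contrast was tested in its own libraries by limma 3.58.1 (R 4.3.3; trend, robust) on log2(FPKM + 1) with Benjamini-Hochberg adjustment, among genes with FPKM of at least 1 in 2 libraries (3 in the tissue comparison). The pseudocount understates changes of low genes. Positions and promoters are from RefSeq on GRCm38.p6. The tests were run on simulated data with changes past the size set for a call, in well read genes, and the same small spread for every gene. That run does not cover low genes or groups with a wider spread. Alternatives were a pseudocount of 0.1, no filter, rescaling, adjusted p alone, edgeR 4.0.16 (TMM, RLE), DESeq2 1.42.0, a replicate block, all 8 libraries in 1 fit, and each library left out.

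Named genes are *Piezo1*, genes the paper names for the lung signature, the 8 largest rises and falls, 6 programme genes per direction of the interaction and up to 4 members of each list, with a mean of at least 5 FPKM in 1 tissue. Other genes spell out a count or were chosen after their values were seen. A gene that these rules select is not reported here. The members, lists and rules were chosen with earlier results of these data known.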

Additional observations from a re-analysis of the deposited data

Results flagged for a closer look

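The lung minus PB difference of 21 named genes differed between *Piezo1*-cKO and WT by the interaction test, at an adjusted p below 0.05 and a size above 1. Among programme genes it was larger in *Piezo1*-cKO for *Ptgs2* (1.60), *Thbs1* (1.57), *Cdkn1a* (1.52), *Cul2* (1.46), *Olr1* (1.29), *Il10ra* (1.29), *Ccrl2* (1.19), *Cxcl2* (1.07) and *Gm4832* (1.06), and smaller for *Lactb2* (−1.80), *Gm6377* (−1.72), *Nifk* (−1.70), *Id2* (−1.52), *Pmvk* (−1.37) and *Cdk4* (−1.31). Outside the programme it was larger for *Per2* (1.26) and smaller for *Tlr7* (−1.55) and for the globin genes *Hbb-bs* (−6.57), *Hba-a1* (−6.24), *Hbb-bt* (−5.74) and *Hba-a2* (−5.09), whose levels in *Piezo1*-cKO PB were far above those in WT PB. No group held the 4 libraries needed to test for a library apart from the others.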

How the results depend on the processing

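The share of tested programme genes called higher in *Piezo1*-cKO stayed between 74.5% and 82.9% under every alternative, but the counts moved, since most alternatives also redefine the programme. Rescaling gave 896 genes higher and 619 lower in *Piezo1*-cKO lung, 667 programme genes called and 290 of the genes lower in lung called. The adjusted p alone gave 1332, 4722, 908 and 3908, with 354 larger and 255 smaller interactions among programme genes. edgeR with TMM gave 1210, 1035, 797 and 476, with 90 and 67, edgeR with RLE 1235, 987, 812 and 454, with 86 and 70, and DESeq2 1221, 948, 811 and 447, with 80 and 68. A pseudocount of 0.1 gave 1374 genes lower in lung called, 59 larger and 44 smaller interactions, and distances of 1.48 in *Piezo1*-cKO and 1.52 in WT, and no filter gave distances of 0.657 and 0.668. Leaving out each library gave 567 to 574 higher, 1654 to 1668 lower, 432 to 440 programme genes, 867 to 891 genes lower in lung, 16 to 22 larger and 16 to 20 smaller interactions. The replicate numbers are not shown to pair lung and PB (the deviations of same-numbered libraries correlated at 0.119 in *Piezo1*-cKO and 0.062 in WT), and a replicate block gave 568, 1644, 437, 876, 19 and 19. No named gene reversed under any alternative, and of 127, 29 lost their call under rescaling and edgeR with TMM and 31 under edgeR with RLE and under DESeq2. Leaving out 1 library took the call from 1 to 3 of the 127, among those in the report *Pmvk*, and gave *Nifk* a call, where the lone library is assumed to vary like the other group. With 2 libraries in each group, error estimates borrow heavily from other genes.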
